A study of Mus musculus with 15 samples.

Results

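Domains of histone H3 trimethylated at lysine 27 (H3K27me3) were compared between the start (0 h) and 30 h of liver regeneration. The members are the islands, stretches of ChIP enrichment over a control library that the authors called with SICER, in the 0 h list and in the 30 h list on chromosomes 1 to 19. At a false discovery rate (FDR) of 0.01 or below there were 12146 islands at 0 h and 11833 at 30 h, or 23979 of the 60486 islands in the 5 wild-type (WT) H3K27me3 lists of the series used here. The study profiled 3 histone marks by ChIP-seq on micrococcal nuclease-digested chromatin from liver nuclei. Both groups were liver of C57Bl/6 mice with the genotype WT, aged 8 to 12 weeks and on normal diet. They differed in the time of regeneration, 0 h or 30 h, and the labels do not say how regeneration was started or whether animals were pooled. Each time is 1 library, so no test between times was possible, and no p-value is given. Intervals are exact Clopper-Pearson 95% intervals, which cover counting error only. For promoters they treat each gene as separate, so they are too narrow where genes share an island. A further 3 WT lists were used to read the values against: 40 h and 96 h of regeneration and a second WT baseline liver library whose label carries no round. The labels of the 0 h, 30 h, 40 h and 96 h libraries carry round 3. Each of these comparisons shares the 0 h list.

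H3K27me3 is laid down by Polycomb repressive complex 2, whose catalytic subunit is Ezh2 or Ezh1, and is read by Cbx proteins of Polycomb repressive complex 1. It covers silent developmental genes with CpG-rich promoters, such as the Hox clusters, and also forms broad, weaker domains over other silent chromatin. When cells replicate their DNA, old nucleosomes with the mark are shared between the daughter strands and the mark has to be restored on new ones. Hepatocytes, which are quiescent in the adult liver, re-enter the cell cycle during regeneration.

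The promoters of 8 genes are shown as examples of sequence that lost, kept or gained an island. Each line gives the 250 bases upstream of the gene start, 5′ to 3′ on the gene's strand, from RefSeq on GRCm38.p6, with every CpG (the letters CG, the same on both strands) in capitals. The following 4 promoters lay in an island at 0 h and in none at 30 h. Igf1r encodes the receptor of insulin-like growth factor 1 (chr7:67952007-67952256, + strand), Phc1 a polyhomeotic subunit of Polycomb repressive complex 1 (chr6:122340228-122340477, - strand), Nkx2-3 a homeobox factor (chr19:43612075-43612324, + strand), and Cdkn2a the cell cycle inhibitors p16 and p19Arf (chr4:89294620-89294869, - strand, the more CpG-rich of its 2 starts).
Igf1r: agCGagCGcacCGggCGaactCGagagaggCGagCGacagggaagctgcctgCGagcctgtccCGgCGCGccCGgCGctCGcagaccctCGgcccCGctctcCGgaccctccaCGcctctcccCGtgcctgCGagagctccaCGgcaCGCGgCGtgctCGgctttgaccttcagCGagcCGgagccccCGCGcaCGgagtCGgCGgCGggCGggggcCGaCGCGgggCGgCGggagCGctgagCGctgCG
Phc1: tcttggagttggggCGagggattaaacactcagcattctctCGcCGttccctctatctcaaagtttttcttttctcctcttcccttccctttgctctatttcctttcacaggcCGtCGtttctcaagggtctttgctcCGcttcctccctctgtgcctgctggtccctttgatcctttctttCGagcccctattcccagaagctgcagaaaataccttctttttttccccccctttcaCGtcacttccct
Nkx2-3: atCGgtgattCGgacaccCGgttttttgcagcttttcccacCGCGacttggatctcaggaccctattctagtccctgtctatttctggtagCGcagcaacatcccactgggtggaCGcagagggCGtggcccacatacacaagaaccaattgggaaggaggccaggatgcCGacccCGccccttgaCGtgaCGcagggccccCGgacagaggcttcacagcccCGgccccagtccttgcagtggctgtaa
Cdkn2a: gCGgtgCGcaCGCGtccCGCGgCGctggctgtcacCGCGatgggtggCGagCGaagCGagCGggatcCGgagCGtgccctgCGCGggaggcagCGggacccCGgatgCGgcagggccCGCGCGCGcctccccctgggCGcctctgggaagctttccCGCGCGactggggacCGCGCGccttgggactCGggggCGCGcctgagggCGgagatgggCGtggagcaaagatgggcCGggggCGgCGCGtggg

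The next pair kept an island at both times. Cdkn2b encodes the cell cycle inhibitor p15 (chr4:89311033-89311282, - strand) and shared its 0 h island with Cdkn2a, and Dkk1 encodes a secreted Wnt antagonist (chr19:30549497-30549746, - strand).
Cdkn2b: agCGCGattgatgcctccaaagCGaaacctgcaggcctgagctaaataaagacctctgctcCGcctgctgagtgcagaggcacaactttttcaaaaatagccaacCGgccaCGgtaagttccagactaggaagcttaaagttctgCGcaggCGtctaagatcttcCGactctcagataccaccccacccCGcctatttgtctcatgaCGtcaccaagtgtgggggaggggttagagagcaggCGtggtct
Dkk1: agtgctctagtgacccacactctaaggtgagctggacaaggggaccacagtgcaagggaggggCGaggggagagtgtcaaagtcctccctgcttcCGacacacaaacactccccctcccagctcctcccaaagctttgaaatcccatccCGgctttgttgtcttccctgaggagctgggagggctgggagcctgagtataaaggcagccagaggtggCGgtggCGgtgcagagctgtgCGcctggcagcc

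The last pair lay in an island at 30 h and in none at 0 h. Fgf7 encodes a growth factor for epithelia (chr2:126034408-126034657, + strand), and Olfr996 is an olfactory receptor gene (chr2:85578965-85579214, + strand).
Fgf7: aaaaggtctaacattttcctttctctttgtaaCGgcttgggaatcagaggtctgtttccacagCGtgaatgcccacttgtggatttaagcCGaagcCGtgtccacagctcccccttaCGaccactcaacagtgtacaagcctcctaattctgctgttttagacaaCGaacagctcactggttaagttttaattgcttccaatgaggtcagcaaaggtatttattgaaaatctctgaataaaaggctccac
Olfr996: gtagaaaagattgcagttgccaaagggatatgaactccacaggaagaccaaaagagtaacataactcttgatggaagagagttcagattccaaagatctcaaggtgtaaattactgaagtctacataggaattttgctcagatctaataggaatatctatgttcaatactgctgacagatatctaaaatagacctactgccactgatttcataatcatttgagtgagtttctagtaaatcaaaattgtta

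The Igf1r and Cdkn2a stretches hold 42 and 40 CpG, those of Phc1 and Nkx2-3 hold 8 and 14, and Cdkn2b and Dkk1 hold 12 and 6. Fgf7 holds 6 and Olfr996 holds 0. Over all 20085 starts with a sequence in the RefSeq table the median was 10, 93.7% of the stretches held at least 1 CpG and 24.6% held 20 or more. These 8 were picked by hand from the genes named here and do not stand for their classes: in the 300-base promoters, 42.6% of those that lost the mark and 37.0% of those that kept it held 15 or more CpG. Each printed stretch lies within the island it stands for.

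The 30 h list had fewer long islands and weaker ones. Islands covered 482.3 Mb at 0 h and 417.2 Mb at 30 h, with median lengths of 26 and 28 kb. Islands of 100 kb or more numbered 851 (140.8 Mb) at 0 h and 387 (52.3 Mb) at 30 h. The authors' fold, ChIP over control reads scaled to library size, had a median of 1.58 at 0 h and 1.45 at 30 h. It was 2 or more in 1224 islands (10.1%) at 0 h and in 55 (0.465%) at 30 h. Islands held 21.7 M ChIP and 29.3 M control reads at 0 h, and 15.2 M and 28.4 M at 30 h. The control libraries of the lists differed: of 128 islands with the same bounds in both, before the FDR limit, 1 had the same control count. The 30 h, 40 h and 96 h lists shared a control, with equal counts in 243 of 243 islands of the same bounds at 30 h and 40 h and 213 of 213 at 30 h and 96 h. The second baseline list had yet another control, with equal counts in 0 of 155 such islands shared with 0 h and 0 of 58 shared with 30 h. The part of depth and enrichment in what follows was not tested. The labels name liver, and none of the 24 hepatocyte marker genes matched, among them Alb, Apoa1 and Hnf4a, had H3K27me3 at its promoter at either time. In whole liver, a mark in fewer cells and less mark per cell cannot be told apart.

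The lists shared 309.4 Mb, which was 64.2% of the 0 h length and 74.2% of the 30 h length. A 0 h island was called lost when no 30 h island shared a base with it, broken up when 2 or more 30 h islands did, shortened when 1 did over under 50% of its length, and kept otherwise. Of the 12146 islands at 0 h, 5345 (44.0%) were kept, 1173 (9.66%) shortened, 2010 (16.5%) broken up and 3618 (29.8%) lost. Of the 11833 at 30 h, 2020 (17.1%) were new, sharing no base with a 0 h island, and 1449 joined 2 or more 0 h islands. The 172.9 Mb held at 0 h and not at 30 h fell 73.5 Mb in lost islands, 29.6 Mb in gaps inside broken up islands, 14.8 Mb at the edges of broken up islands, and 29.2 and 25.9 Mb in shortened and kept islands.

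These totals were not particular to 30 h. Set against the other WT baseline list, 28.8% of the 0 h islands were lost and 11.7% broken up, against 29.8% and 16.5% at 30 h, 34.7% and 16.0% at 40 h, and 19.1% and 15.8% at 96 h. The shares new were 12.8% in the baseline list, 17.1% at 30 h, 20.5% at 40 h and 20.5% at 96 h. The share of 0 h islands lost was thus about as large against a second baseline library as against 30 h. That library is not labelled round 3 as the 0 h and 30 h libraries are, and its control is a different one. The comparisons are therefore not alike in these respects. Where the losses fell, given next, was not the same in each list.

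Length went with the fate of an island. Under 10 kb, 64.1% of 0 h islands were lost (interval 60.7% to 67.5%), from 10 to 20 kb 46.2%, from 20 to 50 kb 27.6%, from 50 to 100 kb 4.79%, and 7 of 851 (0.823%) at 100 kb or more. Broken up islands ran the other way, at 0 of 806, 0.984%, 8.51%, 45.3% and 83.3% (709 of 851) in the same order. A longer island has more bases to meet another island, so part of both trends follows from the definitions. Against the other baseline list the shares were 57.2% lost under 10 kb and 64.7% broken up at 100 kb or more. New islands at 30 h were also short, with 46.2% new under 10 kb, 22.6% from 10 to 20 kb, 18.2% from 20 to 50 kb and 2.74% from 50 to 100 kb.

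**Figure D1:**
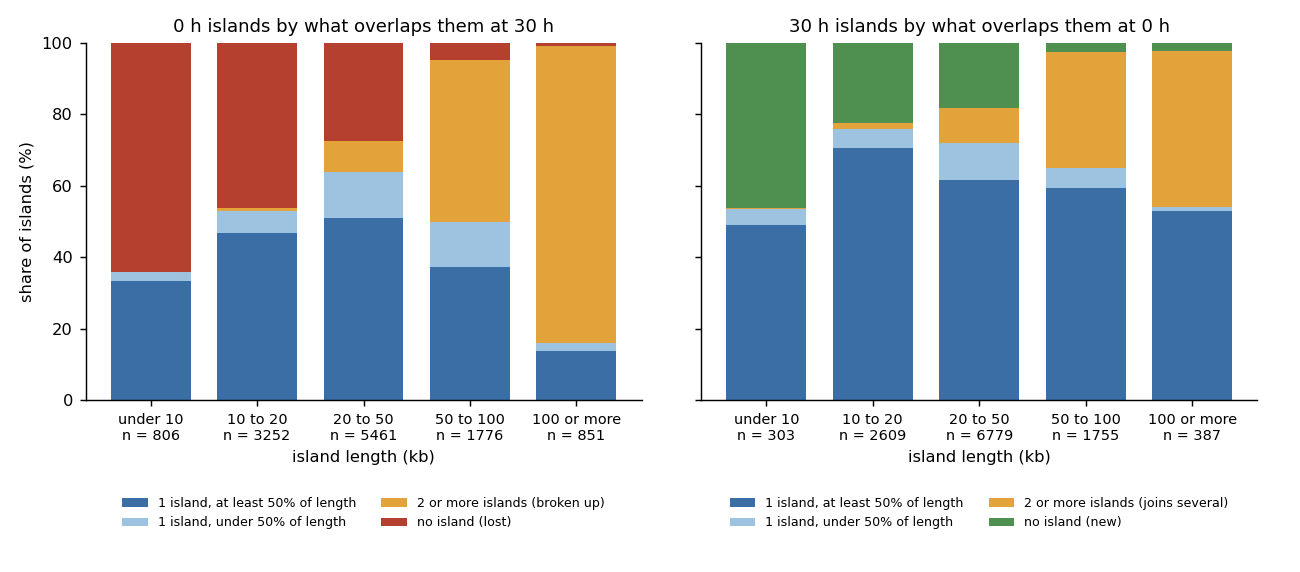
Share of islands (%, stacked bars) in each class by island length (kb), for the 12146 islands at 0 h (left) and the 11833 at 30 h (right), with the number of islands under each bar. Lost islands fall from 64.1% to 0.823% with length while broken up islands rise from 0 to 83.3%.

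Strong islands were lost more often than weak ones only under 10 kb. Under 10 kb the share lost was 57.4% in the lowest quartile of the authors' fold and 72.8% in the highest. From 20 to 50 kb the order was the reverse, 42.2% in the lowest quartile and 19.8% in the highest. The lowest and highest quartiles had 48.3% and 41.5% from 10 to 20 kb, 10.4% and 2.03% from 50 to 100 kb, and 3.29% and 0 above. New islands were weak at each length under 50 kb, with 41.1% new in the lowest and 1.65% in the highest quartile of 30 h islands of 20 to 50 kb.

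Of the 10 lost islands of highest fold, 8 lay in or at named genes. A 9 kb island inside Nrxn2, which encodes the synaptic adhesion protein neurexin 2 (chr19:6423001-6432000), had 394 ChIP and 246 control reads and a fold of 3.58. A second lost island in Nrxn2 (chr19:6490001-6516000) had a fold of 2.98, so both lay in the same gene, and both places were in islands of the other baseline list and in none at 40 h or 96 h. Fosb, an early response gene of the AP-1 family, held a lost 6 kb island in its body with a fold of 3.36 that no other WT list overlapped.

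The promoters of 5 further islands of that group lost the mark with the whole island. The 18 kb island at Cacng6, a calcium channel subunit gene (chr7:3409001-3427000), had a fold of 3.26. That at Kcnn1, a calcium-activated potassium channel gene (chr8:70861001-70865000), had a fold of 3.21. Shox2, a homeobox gene of limb and heart, lay in a 30 kb island (chr3:66955001-66985000) with 1883 ChIP and 1430 control reads and a fold of 2.94, and the Shox2 promoter was marked at 96 h and in the other baseline list but not at 40 h. The Shox2 island also held a promoter of Rsrc1. The remaining promoters were those of Zfp580, Ccdc106 and U2af2 in 1 island (fold 3.28) and Ajm1 (3.10). The last 2 of the 10 touched no named gene, and lay near Myo3b (3.09) and far from any on chromosome 12 (3.54).

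Kept islands of high fold had lower folds at 30 h. Dkk1 lay in a 22 kb island (chr19:30536001-30558000) with 1552 ChIP and 1093 control reads at 0 h (fold 3.17), and the 30 h island over it had 1464 and 2193 reads (fold 1.81). For Fcgr3, an antibody receptor of myeloid cells, the fold was 3.58 at 0 h and 1.72 at 30 h. Gdf7, a bone morphogenetic protein family ligand, had 2.92 and 1.79, and Celf6, a splicing regulator of neurons, had 3.00 and 1.89. All 10 kept islands of highest 0 h fold were below 2 at 30 h. The bounds differed between the times, so these folds and reads are not of the same stretch. The 30 h island over Dkk1 was chr19:30520001-30558000. Control reads in the 0 h and 30 h islands were 434 and 3448 at Rtn1, and 934 and 704 at Gdf7. Choosing them for high 0 h values makes some fall likely, so this is a description.

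New islands were modest in fold and poor in promoters. The highest fold was 1.97, for a 6 kb island inside Phactr1, an actin and phosphatase regulator (chr13:42731001-42737000), with 274 ChIP and 376 control reads. A new 11 kb island in Psd4, which activates an Arf GTPase (chr2:24401001-24412000), had a fold of 1.89, and an island in Pde4b, a cyclic AMP phosphodiesterase (chr4:102185001-102199000), had 1.78. The other 7 of the top 10 touched no named gene, the nearest being Nr5a2, Adck1, Id4, Chrna9, Lin9, Nudt12 and Cyyr1.

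Position to genes separated new from lost islands. Of 30 h islands that held a promoter (1 kb either side of a protein-coding start), 5.76% were new, against 16.5% in gene bodies, 18.2% outside genes within 50 kb and 28.4% over 50 kb from genes. The same order of the extremes held at each length under 50 kb: from 20 to 50 kb, 7.17% (5.94% to 8.57%) with a promoter and 28.9% (26.8% to 31.1%) far from genes. Lost islands showed little order over all lengths, at 26.8%, 31.8%, 32.9% and 29.6%. Among short ones, islands with a promoter were lost more often. Under 10 kb, 76.9% (71.3% to 81.8%) of islands with a promoter and 52.9% (44.2% to 61.3%) of those far from genes were lost. From 10 to 20 kb the shares were 51.5% and 39.3%. Broken up islands hardly differed by position within a length, at 82.9% with a promoter and 88.5% far from genes among those of 100 kb or more, with overlapping intervals. Over all lengths, islands with a promoter were lost least in each list: the shares with a promoter and far from genes were 29.0% and 39.1% at 40 h, 11.7% and 21.9% at 96 h, and 19.9% and 30.7% in the other baseline list, beside the 26.8% and 29.6% at 30 h.

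Most broken up islands fell into few pieces with narrow gaps. Of 2010, 1451 met 2 islands at 30 h, 362 met 3, 197 met 4 or more and 2 met 10 or more. The 2905 gaps had a median of 6 kb (quartiles 5 and 10 kb) and ran from 5 to 110 kb. Gaps and lost edges together left 77.6% of the length of these islands under H3K27me3 at 30 h. The authors' SICER setting joined enriched windows across gaps of up to 4 kb, so 5 kb is the smallest gap it can leave.

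The longest broken up island was at Grik3, a kainate-type glutamate receptor gene. It spanned 798 kb at 0 h (chr4:125136001-125934000, fold 1.74) and met 11 islands at 30 h with folds of 1.35 to 1.64, which left 79.8% of it covered. The Sox1 island, around a neural transcription factor gene, spanned 743 kb (chr8:11886001-12629000, fold 2.54). It met 4 islands (folds 1.53 to 1.81), and 94.6% stayed covered. A 560 kb island on chromosome 9 (chr9:46599001-47159000), with no named gene in it, met 12, the most of any broken up island.

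In 3 of the 10 longest a gap lay over the start of a named gene. The 509 kb island over Synm and Igf1r (chr7:67747001-68256000, fold 2.39) met 5 islands, and 1 of its 4 gaps, of 9 kb (chr7:67949001-67958000), lay over the Igf1r start. In the 497 kb island over Scube1, Mpped1 and Efcab6, a 12 kb gap lay over a start of Mpped1 (chr15:83769001-83781000). In the 498 kb HoxB island an 85 kb gap (chr11:96268001-96353000) held the starts of Hoxb3 to Hoxb9. Gaps in the other 7, among them those of Grik3, Sox1, Creb5, Ncam1 and Asic2, held none. In the other baseline list the Sox1, Igf1r, HoxB and chromosome 9 islands each met 2 islands, and Grik3 met 12.

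**Figure D2:**
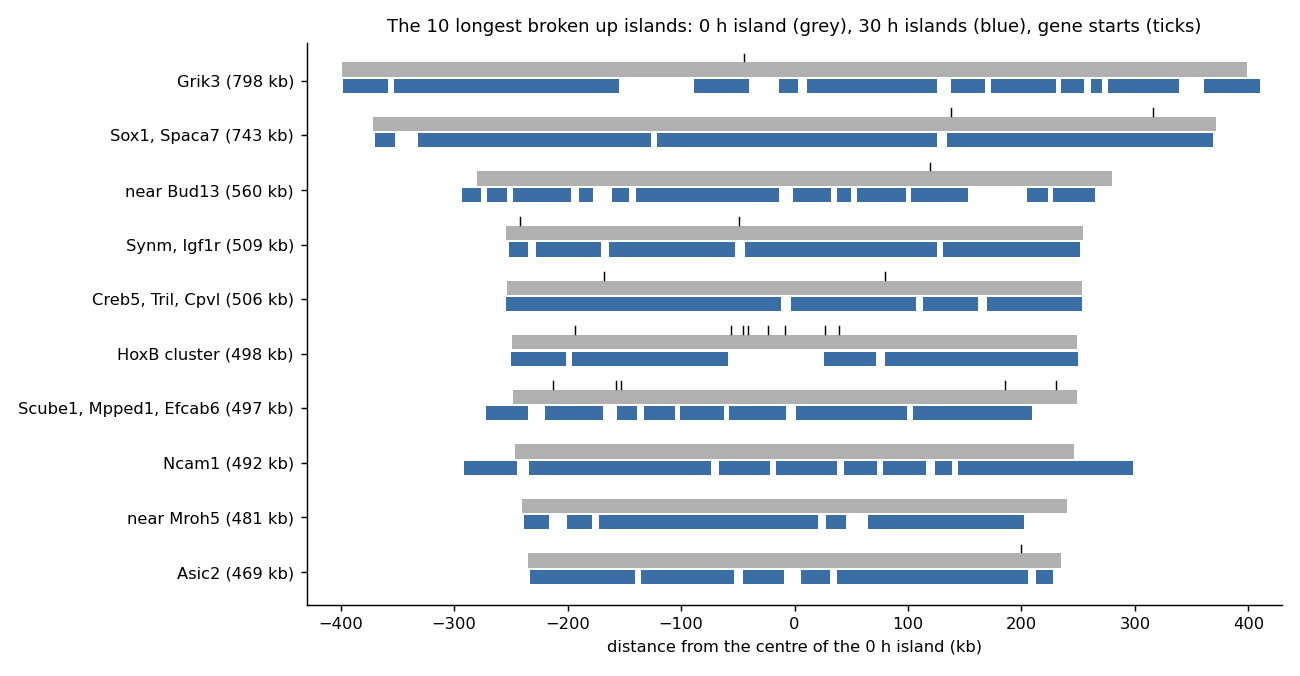
The 10 longest broken up islands, drawn by distance from the centre of the 0 h island (kb): the 0 h island (grey), the 30 h islands that meet it (blue) and starts of protein-coding genes (ticks). Ticks are starts in the RefSeq table or, for genes without one, the gene end with more H3K4me3. Genes for which both ends were used have no tick. The widest gap is that of 85 kb in the HoxB cluster, and Grik3 shows 11 pieces.

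All 4 Hox clusters, which encode factors that pattern the body axis, had such gaps at 30 h. Each lay in 1 island at 0 h, and these 4 islands held all 39 Hox promoters. The RefSeq table gave a start for 22 of the 39 genes, and gene ends stood in for the rest. The HoxD island (chr2:74629001-74825000, 13474 ChIP and 10468 control reads, fold 2.88) met 2 islands with folds of 1.68 and 1.72, and a 49 kb gap (chr2:74682001-74731000) left Hoxd3, Hoxd4, Hoxd8, Hoxd9 and Hoxd10 unmarked. In HoxC (chr15:102723001-103087000, fold 2.70) a 51 kb gap (chr15:102946001-102997000) lay over the cluster and Hoxc8, Hoxc9, Hoxc10 and Hoxc11 were unmarked. In HoxA (chr6:52032001-52381000, fold 2.62) the largest gap was 110 kb (chr6:52158001-52268000) and none of 11 promoters was marked.

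The gaps of the Hox clusters differed between lists. At 40 h the largest gaps were 22 kb in HoxD, 26 kb in HoxC, 64 kb in HoxA and 88 kb in HoxB, and 18 of 39 promoters were unmarked. In the 96 h and other baseline lists no Hox promoter was unmarked, at least 96.4% of each island was covered, and no gap was wider than 7 kb. Folds in these islands reached 3.27 to 3.36 at 96 h in HoxA, HoxB and HoxD, against 1.72 to 1.90 at 30 h.

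Over all broken up islands, the gaps at 30 h were richer in gene starts than the pieces. Gaps held 12.1 starts per Mb (357 starts) and pieces 7.55 (1160 starts). Peaks of H3K4me3, the mark of active and poised promoters, covered 1.92% of the gap length and 0.418% of the piece length in replicate 1 of the WT baseline H3K4me3 data, and 0.790% and 0.131% in replicate 2. Starts in gaps had a median of 12 CpG in the 300-base promoter (250 before to 50 after the start) and those in pieces 8. Counted by island, of 840 broken up islands with a start, density was higher outside the pieces, in gaps and edges together, in 329 and inside in 510. Over all 2010 broken up islands, pieces held 153.5 Mb, gaps 29.6 Mb and edges 14.8 Mb. A start is thus more likely to fall in a piece by length alone, and this count does not set gaps against pieces.

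The same measure in the other lists had the opposite order at 96 h and at baseline. For 0 h islands broken up in the 40 h list, gaps held 9.64 starts per Mb and pieces 8.17. In the 96 h list the values were 4.69 and 9.92, and in the other baseline list 4.59 and 9.03. H3K4me3 of replicate 1 covered 1.47% of gap length and 0.499% of piece length at 40 h, 0.490% and 0.700% at 96 h, and 0.457% and 0.645% in the baseline list. Starts and H3K4me3 were thus denser in gaps than in pieces in the 30 h and 40 h lists, and less dense in the other 2. The 96 h list has the same control library as those of 30 h and 40 h, and a higher median fold, 1.56 against 1.45 in each. With 1 library per list the difference in order was not tested, and neither was the part of control, depth or enrichment in it.

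**Figure D3:**
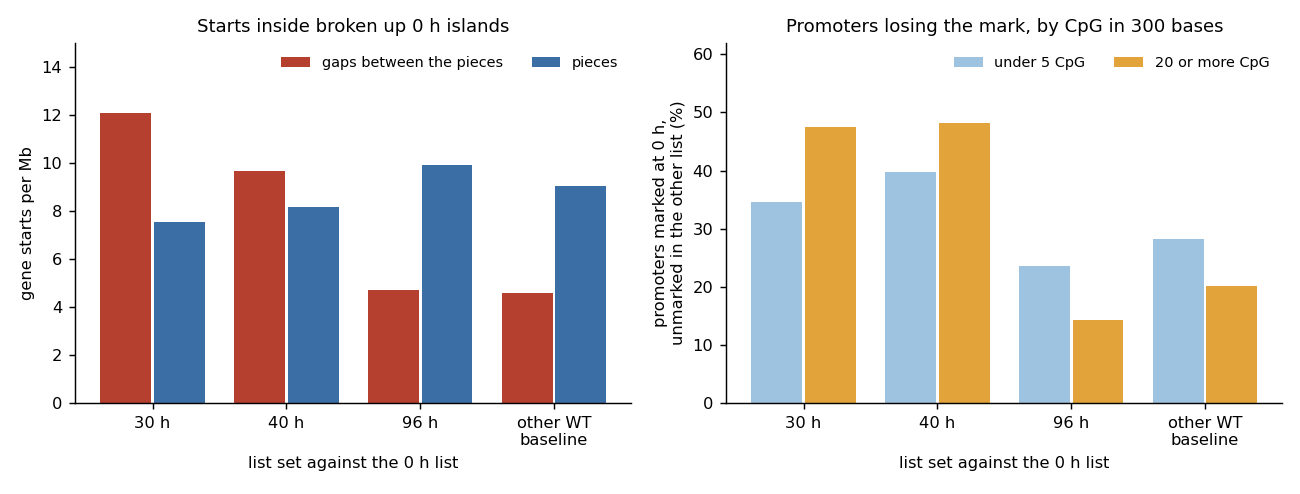
Left, gene starts per Mb in the gaps (red) and pieces (blue) of 0 h islands that were broken up in each of 4 other lists, from 12.1 in gaps at 30 h to 4.59 in gaps in the other WT baseline list. Right, share (%) of promoters marked at 0 h that were unmarked in the other list, for those with under 5 (light blue) or 20 or more (orange) CpG in 300 bases: 34.6% and 47.4% at 30 h, 28.3% and 20.2% in the baseline list.

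Promoters carrying H3K27me3 numbered 5888 of 20665 at 0 h and 3726 at 30 h. The mark was lost from 2499, which is 12.1% of all promoters and 42.4% of those marked at 0 h. A loss here is one of the promoter window and need not extend to the gene body. At 30 h islands covered 85.0% of the Fgf9 gene, 64.5% of Gata3 and 0% of Foxl2, whose promoters were all lost. It was new at 337, or 1.63% of all and 2.28% of those unmarked at 0 h. Of the 2499, 54.4% lay in islands lost whole, 18.8% in broken up, 14.8% in kept and 12.0% in shortened islands. Against the 0 h list, 44.9% of marked promoters were unmarked at 40 h, 20.1% at 96 h and 26.6% in the other baseline list, while the shares of whole islands lost were 34.7%, 19.1% and 28.8%. Of the 2499 lost at 30 h, 1597 were marked at 96 h and 1322 in the other baseline list.

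Promoters poor in CpG lost the mark less often at 30 h. Those that lost the mark had a median of 12 CpG (quartiles 5 and 22.5, 1919 promoters with a sequence), those that kept it 9 (3 and 20), and those newly marked 3 (2 and 7), against 14 over all promoters. Of promoters marked at 0 h with 20 or more CpG, 47.4% (44.6% to 50.2%) were unmarked at 30 h, against 34.6% (32.0% to 37.2%) of those with under 5. Between these the shares were 45.0% at 5 to 9 CpG, 45.9% at 10 to 14 and 42.7% at 15 to 19, so there was no gradient above 5 CpG. At 40 h the shares were 48.1% and 39.7%. At 96 h they were 14.3% and 23.7%, and in the other baseline list 20.2% and 28.3%, the reverse order. Among promoters unmarked at 0 h, 5.52% of those with under 5 CpG and 0.481% of those with 20 or more were newly marked at 30 h.

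Of 39 Hox promoters, which lay in 4 islands, 27 were unmarked at 30 h (69.2%, interval 52.4% to 83.0%), against 42.4% of all marked promoters. That interval treats the 39 promoters as separate and is too narrow for 4 islands. Only 22 of the 39 had a start in the RefSeq table. Of 102 marked promoters of other homeobox and paired box genes 51 were unmarked (interval 39.9% to 60.1%), which includes the share of all promoters. Neither the 96 h nor the other baseline list had an unmarked promoter in these 2 groups among those marked at 0 h. In the list of other homeobox and paired box genes, which does not hold Shox2, those lost with the highest 0 h folds were Nkx2-3 (2.85), Lhx9 (2.68), Evx1 (2.62), Lbx1 (2.61) and Isl2 (2.59), which pattern spleen and gut, limb and brain, mesoderm, muscle precursors and motor neurons. Among those kept was Mnx1, a gene of motor neurons and pancreas, with folds of 2.70 at 0 h and 1.58 at 30 h. The 0 h island of Evx1 was the HoxA island, so Evx1 is not an example apart from the Hox clusters. At 30 h islands still covered 69.3% of the Evx1 gene and 45.7% of Lhx9, and 0% of Nkx2-3, Lbx1 and Isl2.

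Shares in the other developmental groups lay on both sides of the 42.4% of all promoters. In the Sox, T-box, Gata and Fox group 18 of 52 marked promoters were lost (34.6%), among them Gata3 (fold 2.45), which directs T cells and ear, Foxl2 (2.35), of the ovary, and Sox17 (2.19), of endoderm and endothelium. Sox2, of stem and neural progenitor cells, kept it with 2.56 at 0 h and 1.94 at 30 h, as did Gata4, a heart and gut factor, with 2.46 and 1.67. The 30 h island of Gata4 covered no part of the gene, so it reached part of the 1 kb window and not the start itself. Of 30 marked Wnt ligand, receptor and antagonist promoters 9 were lost, such as Wnt10a (2.71), Wnt4 (2.46) and Wnt2b (2.15), while Wnt6 in the same 0 h island as Wnt10a kept it (2.71 and 1.73). Of 36 marked Bmp, Gdf, Fgf and Tgfb ligand promoters 17 were lost, led by Fgf10 (2.74), Bmp2 (2.28) and Fgf9 (2.16). Fgf7 was the only one newly marked (30 h fold 1.70).

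Channel and receptor genes of neurons and other excitable cells had shares near or under that of all promoters. Of 99 marked potassium and calcium channel genes 31 were lost (31.3%), led by Cacng6, Kcnn1 and Kcnh3 (2.90), and Kcnj1, a kidney potassium channel gene, was newly marked (30 h fold 1.54). Kcnj9, of brain, was kept with 2.37 and 1.94. Of 30 marked glutamate and GABA receptor genes 13 were lost, such as Grin2c (2.65), Grm3 (2.61) and Gabra2 (2.45). Of 37 marked clustered protocadherin promoters 12 were lost and 2 were new, and 41 were marked at 40 h. Of the 57 protocadherin genes, 0 had a start in the RefSeq table. Gene ends stood in for their starts, and several of these genes share an end, so these counts are uncertain.

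Clustered gene families changed in both directions or lost few promoters. Olfactory receptor promoters were marked at 190 of 1104 at 0 h and 184 at 30 h, with 59 lost and 53 new. The newly marked included Olfr996 and Olfr998 in 1 island (30 h fold 1.55), and the lost included Olfr95 (0 h fold 2.12). Vomeronasal receptors, which detect pheromones, had 28 marked at 0 h and 31 at 30 h, with 11 lost and 14 new. Keratin and keratin-associated genes, of skin and hair, lost the fewest of these lists, 8 of 82 (9.76%, 4.31% to 18.3%), among them Krt4 and Krt10. The 82 lay in 15 islands and the 8 lost in 6, so the interval is too narrow. In the other baseline list the keratin count was 7 of 82.

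**Figure D4:**
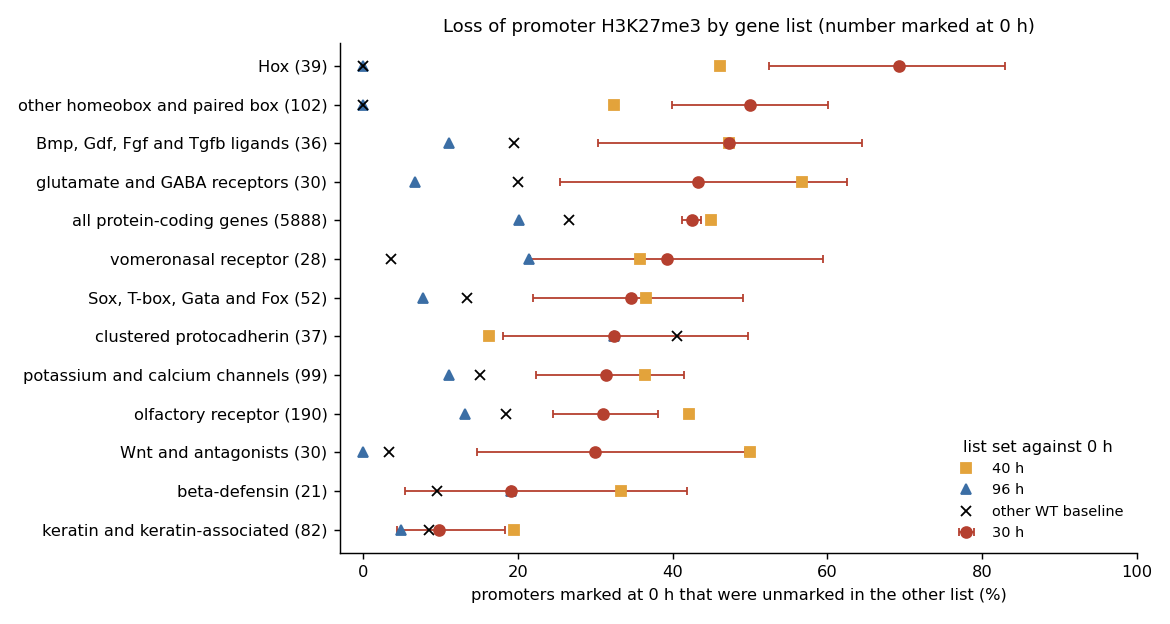
Share (%) of promoters marked at 0 h that were unmarked in the 30 h list (red, with exact 95% intervals that cover counting error only), and in the 40 h (squares), 96 h (triangles) and other WT baseline (crosses) lists, for lists with 20 or more marked genes and for all genes. Hox and other homeobox genes are at 69.2% and 50% at 30 h and at 0 in the 96 h and baseline lists, and genes in a list can share an island.

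Few cell cycle genes carried the mark. Of 41 genes 6 were marked at 0 h and 1 at 30 h, and the share lost of 5 in 6 has an interval (35.9% to 99.6%) that includes the 42.4% of all promoters. Cdkn2a (0 h fold 2.63), Ccnd2, which encodes cyclin D2 (1.78), Bub1, a spindle checkpoint kinase gene (1.75), Cdkn1c, which encodes the inhibitor p57 (1.72), and Ccnd1, which encodes cyclin D1 (1.34), were lost. Cdkn2b kept the mark, with 2.63 at 0 h and 1.70 at 30 h. Cdkn2a and Cdkn2b shared a 0 h island of 5125 ChIP and 4361 control reads. The 30 h island over Cdkn2b (chr4:89299001-89317000, 635 and 1012 reads) did not reach Cdkn2a. Elsewhere in the Cdkn2a gene, outside its promoter windows, 32.4% of its length lay under H3K27me3 at 30 h. Cdkn2a and Ccnd2 were marked again at 96 h, and Bub1, Cdkn1c and Ccnd1 were not.

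Genes of the Polycomb machinery were few as well. Of 28 genes 7 were marked at 0 h and 1 at 30 h, and the interval of the share lost (42.1% to 99.6%) also includes the 42.4% of all promoters. Epop, a Polycomb repressive complex 2 accessory gene (2.48), Pcgf1 (2.29) and Bmi1 (2.08), which encode ring finger subunits of Polycomb repressive complex 1, Phc1, a polyhomeotic subunit gene (1.66), and Phf19, which encodes a reader bound to Polycomb repressive complex 2 (1.61), were among the 6 lost, and Cbx6 was kept (1.96 and 1.48). The islands of Bmi1 and Pcgf1 reached only the edge of the 1 kb window and not the start itself. All 6 were marked at 96 h and in the other baseline list. In the other baseline list 2 of the 6 cell cycle promoters and 0 of the 7 Polycomb promoters marked at 0 h were unmarked.

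Markers of other liver cells had shares lost on both sides of the 42.4% of all promoters, from 25% to 57.1%. Of marked promoters, 4 of 7 bile duct, 4 of 8 endothelial, 3 of 12 stellate and fibroblast, 3 of 11 macrophage and myeloid, and 5 of 10 lymphocyte markers were lost at 30 h. Sox9 (0 h fold 1.60), Epcam (1.63), Cftr (1.89) and Prom1 (2.14) of bile duct and Cdh5 (1.49), Kdr (1.87), Flt1 (2.20) and Sox17 of endothelium were lost. New marks appeared at Mmp7 (30 h fold 1.32) and Cd69 (1.27). The part of changed cell makeup in the loss at any gene group was not tested.

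Read counts could be compared most directly in islands of nearly the same bounds. In 575 pairs that overlapped by at least 90% of both lengths, the median fold was 1.64 at 0 h, the median ratio of 30 h to 0 h was 0.903 and the fold was lower at 30 h in 461 (80.2%). ChIP reads per kb at 30 h were 0.803 times those at 0 h (quartiles 0.736 and 0.879) and control reads 1.07 times. The ratio of the authors' ChIP to control scales (0.369 and 0.447), multiplied by the median control ratio, gave a ChIP depth at 30 h of 0.884 times that at 0 h. The median ratio of folds was 0.869 (quartiles 0.789 and 0.932) in 256 pairs with a promoter and 0.947 (0.886 and 1.02) in 80 far from genes. Pairs were chosen for keeping their bounds, so they are not a sample of all islands, and those with a promoter had the higher 0 h folds, with a median of 1.80.

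**Figure D5:**
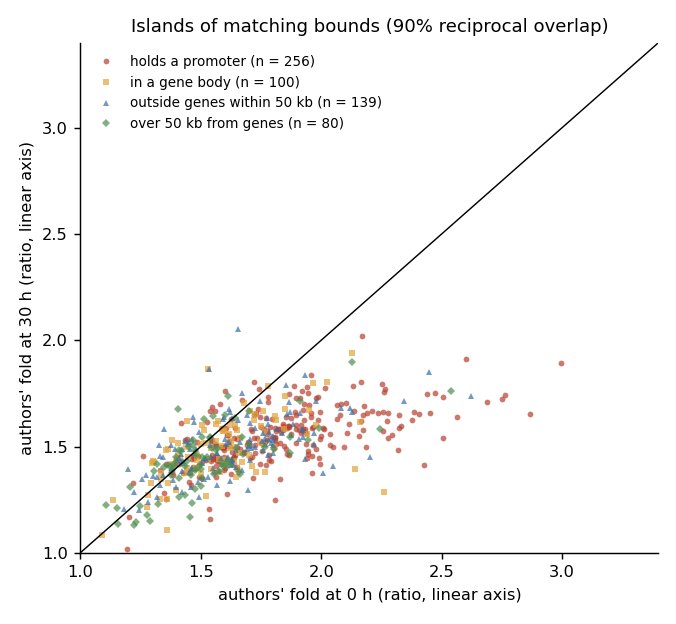
Authors' fold (ratio) at 0 h against 30 h for 575 islands of matching bounds, by position to genes, on linear axes with the line of equal values. Of these, 461 lie under the line, and the highest 30 h value is 2.05.

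Control reads did not separate the classes. Median control reads per kb ran from 57.9 in lost to 59.3 in broken up islands at 0 h, and from 63.1 in kept to 65.3 in new islands at 30 h. ChIP reads per kb were 40.0 in lost and 42.0 in kept islands at 0 h, and 32.7 in new and 34.9 in kept islands at 30 h. The exception was the 303 islands under 10 kb at 30 h, with a median of 91.7 control reads per kb (quartiles 65.2 and 130.1), against 58.1 in 0 h islands of that length.

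Lost and new islands also differed in other marks measured in WT liver at baseline. H3K4me3 peaks of replicate 1 met 31.7% of lost, 29.6% of kept, 51.2% of broken up and 7.67% of new islands. The shares over all islands were 34.3% at 0 h and 21.8% at 30 h, and new islands belong to the 30 h list. Broad H3K9me3 peaks, a mark of silent repeats, met 22.7% of lost, 35.5% of kept, 68.7% of broken up and 47.5% of new islands. Over all islands the shares were 37.8% at 0 h and 46.0% at 30 h, so new islands were near the share of their list. H3K9me3 peaks covered 1.11% of the length of lost and 3.54% of that of new islands, against 1.41% over all 0 h and 1.99% over all 30 h islands. Shares of islands met rise with length, and broken up islands are the longest. From 10 to 20 kb, H3K4me3 met 29.7% of lost and 19.5% of kept islands, and from 20 to 50 kb 30.8% and 30.3%. For H3K9me3 these shares were 16.3% and 19.6%, and 29.6% and 37.4%.

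Many lost islands were seen in other lists, though at lower shares than all 0 h islands. Of the 3618, 58.9% met an island at 96 h, 41.2% met one in the other baseline list, 1193 of them met one at 40 h, and 1051 (29.0%) met none in any of these. Kept islands met one in 88.8% at 96 h, 82.0% at baseline and 75.7% at 40 h, and all 0 h islands in 80.9%, 71.2% and 65.3%. Of the 2020 new islands 45.0% met an island at 40 h, 49.5% at 96 h and 31.9% in the other baseline list, and 571 (28.3%) met none. Over all 30 h islands the shares were higher, at 74.7%, 84.2% and 76.8%.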

How the data were processed

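H3K27me3 island lists from WT mouse liver at 0 h and 30 h were compared, with WT lists at 40 h, 96 h and a further baseline, 2 WT H3K4me3 lists and 1 WT H3K9me3 list as readouts. SICER, MACS2, Picard, BWA, Trimmomatic and FastQC 0.11.5 and the builds mm10 and GRCm38.p4 are named in the submitters' processing notes, without further versions. Islands were called per library with a 1000 bp window and 4000 bp gap, per the names of the deposited lists. The deposited lists give raw ChIP and control read counts without normalization, a p-value and FDR, and a ratio of ChIP to control (fold) scaled by the authors.

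Islands at FDR 0.01 or below were kept, which left out 397 and 589. At 0 h the last island inside had an FDR of 0.00952 and the first outside 0.0105; at 30 h these were 0.00979 and 0.0101. Classes need 1 shared bp. Starts came from RefSeq (GRCm38.p6) for 16457 of 20665 protein-coding genes. For 2692 the gene end with more H3K4me3 was used, a choice that was right in 94.2% of 8588 genes with 1 known start, and for 1516 both ends. The members, lists and the naming rule were chosen with earlier results of these data known. The rule took the 10 lost, kept and new islands of highest fold, the 10 longest broken up, and up to 5 genes per list and class by fold, leaving out symbols of predicted genes. Other mentions were chosen after values were seen. The overlap code was tested on simulated data. Counts and overlaps were made in Python 3.11.15 with pandas 2.3.3 and numpy 2.4.6, intervals with scipy 1.17.1 and figures with matplotlib 3.10.9.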

Additional observations from a re-analysis of the deposited data

How the results depend on the processing

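No paired analysis was possible because each time has 1 library. Of 50 alternative values, 34 lay within 1.5 times the reported count and 16 did not. With only islands of fold 2 or more, 1198 of 1224 islands were lost, 0 broken up and 29 of 55 new, and 1298 promoters were lost and 11 new, since few 30 h islands pass. Joining islands across gaps under 10 kb left 1044 broken up. Thinning the 0 h list to the covered length of the 30 h list, dropping islands of lowest fold, gave 3090 new islands and 522 new promoters, as fewer 0 h islands were left to meet. With the other WT baseline library in place of 0 h, 2261 islands and 1614 promoters were lost and 586 promoters were new. Alternatives chosen after seeing the data were the 96 h list in place of 30 h (2323 islands and 1186 promoters lost, 573 promoters new), the other baseline list in place of 30 h (1336 islands new, 1569 promoters lost) and genes with a tabulated start. The cause of the shifts between libraries was not tested. Counts at a stricter or absent FDR limit, at a 10% overlap and at 40 h stayed within 1.5 times. One library per time limits every statement.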

Other observations

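Liver gene families also carried islands at some members. Of 22 Mup genes, which encode major urinary proteins, 9 promoters were marked at 0 h and 2 at 30 h, with Mup13 (0 h fold 2.25), Mup10 (2.17) and Mup6 (2.13) among the lost. In the other baseline list 18 of the 22 were marked and at 96 h 7. These genes are near-identical copies, so reads can be shared among them. Cytochrome P450 genes of the families that handle drugs, fatty acids, bile acids, steroids and retinoids had 17 of 89 promoters marked at 0 h and 14 at 30 h. Those lost were Cyp2b13, Cyp2a4, Cyp2a5 and Cyp2g1, neighbours on chromosome 7, with 0 h folds of 1.56 to 2.16, and Cyp4a30b was newly marked. Of 66 Ugt, Sult and Gst genes of conjugation 12 were marked at 0 h and 8 at 30 h, and of 62 Serpin genes 7 at both. Of those marked at 0 h, 7 of 9 Mup (interval 40.0% to 97.2%), 4 of 17 Cyp, 5 of 12 Ugt, Sult and Gst and 2 of 7 Serpin promoters were lost, against 42.4% of all marked promoters. The 9 Mup promoters lay in 5 islands, so the Mup interval is too narrow.

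The covered length at 30 h relative to 0 h ran from 0.756 on chromosome 4 to 0.986 on chromosome 10. Across the 19 chromosomes it went with gene density at a Pearson r of -0.571 and a Spearman rho of -0.591, a description of points that share both libraries. A few places had extreme control counts. At chr2:98662001-98668000 the control had 46353 reads in the 0 h list and 213124 in the 30 h list, and at chr9:3000001-3039000 it had 214122 and 833464, with folds of 1.40 and 1.68, and 1.16 and 1.13.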
